A study of Mus musculus with 18 samples.

Results

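Short hairpin RNAs lower the messenger RNA that they match, and in the experiment described here the first of a pair of hairpins against Ndufa5 was set against a control hairpin. The tested cells carried shNdufa5_1 (labelled as Ndufa5 knockdown 1) and the controls carried shControl (labelled as Ndufa5 wild type). Both were KPCA.B, a mouse line that the labels describe as high-grade serous ovarian cancer, and both were kept in PCM, which is medium conditioned by proliferating cells, diluted 1:1 with fresh high-glucose DMEM holding 4% serum, EGF at 2 ng/mL and insulin-transferrin-selenium. Each group had 3 libraries, so the comparison rested on 6 of the 18 libraries of the series. The other 12 carried shNdufa5_2 in PCM, or shNdufa5_1, shNdufa5_2 or shControl in SCM, the medium of chemotherapy-induced senescent cells. All groups share the cell line, so 1 line stands for the tumor type. The labels do not say whether the hairpin cells were 1 clone or a pool, or whether replicates were separate cultures. The p-values therefore measure the spread between these libraries, which may be technical.

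Expression is given as FPKM, by name fragments per kilobase of transcript and per megafragment of library. Of 54532 genes in the deposited table, 11084 had a mean of at least 1 FPKM over the 18 libraries and were tested. The recovered depth was 16.4, 15.3 and 15.8 M (mega) fragments in the shNdufa5_1 libraries, against 15.3, 33.8 and 17.6 M in the shControl libraries. The divisor behind the FPKM values was not this depth. It was 17.0, 15.8 and 16.4 M with shNdufa5_1, against 15.9, 35.2 and 18.5 M with shControl. In SCM the shControl divisors were 13.4, 33.7 and 13.6 M, below the recovered 15.2, 38.9 and 15.4 M. The values thus hold a scaling between libraries that the sources used here do not describe. Within each group, libraries correlated at 0.979 to 0.990 across genes. A difference is written as shNdufa5_1 minus shControl on the log2(FPKM + 1) scale with its standard error (SE), which understates the change of low genes. A gene was called when limma's moderated test gave a Benjamini-Hochberg adjusted p under 0.05 over all tested genes.

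NDUFA5 is a nuclear-encoded accessory subunit of mitochondrial complex I, the NADH dehydrogenase that passes electrons from NADH to ubiquinone. It sits in the peripheral arm of the complex, in the module that binds ubiquinone (Q module), next to the module that oxidizes NADH (N module) and above the membrane arm that pumps protons. Complex I turns over NADH made by the TCA cycle, and cells that lose its activity lean on glycolysis and often engage stress pathways of the cytosol and the endoplasmic reticulum.

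Ndufa5 mRNA was lower under shNdufa5_1 in every library. GENCODE places ENSMUSG00000023089, as the table identifies it, on mouse chromosome 6, minus strand, from 24518666 to 24528013 in GRCm38, with 1032 bases of exon. Its level was 6.23, 6.39 and 6.85 FPKM in the shNdufa5_1 libraries, against 15.2, 19.02 and 22.1 FPKM in the shControl libraries. The groups did not overlap, and Ndufa5 fell to 34.6% of the control mean (log2 difference -1.39 ± 0.12, SE; limma adjusted p = 1.47e-07). With 3 libraries against 3 the two-sided exact permutation test gave p = 0.1, the smallest p it can give. In PCM the libraries labelled shNdufa5_2 held 18.7, 17.2 and 16.8 FPKM, within the range of the controls, and their difference from shControl was -0.08 (limma adjusted p = 0.647). In SCM the shNdufa5_2 libraries held 14.6, 16.1 and 20.2 FPKM, each below the shControl libraries at 22.3, 26.2 and 20.9 FPKM. That difference was not tested.

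**Figure D1:**
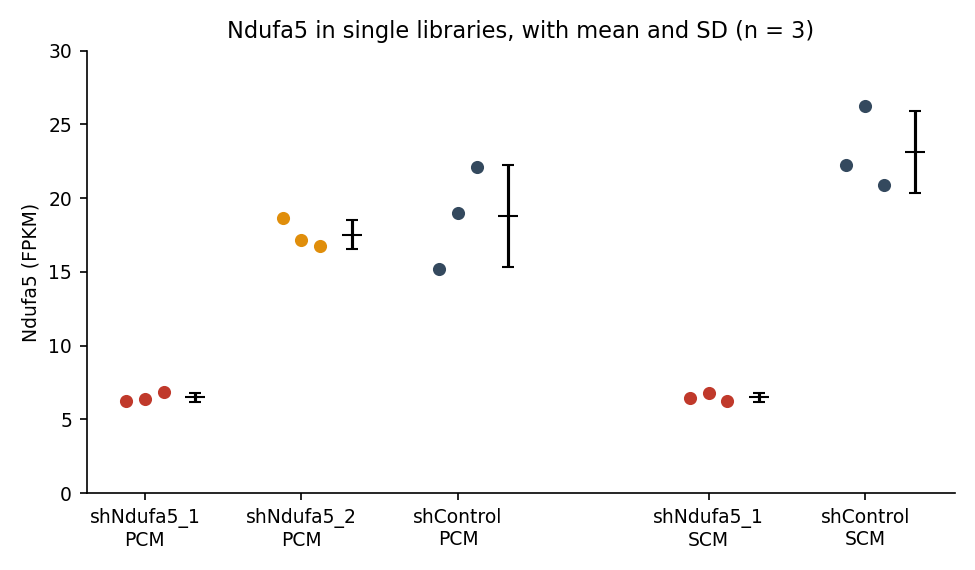
Ndufa5 in FPKM (y axis) in each library of 5 groups (x axis), in PCM on the left and SCM on the right; points are libraries and the bar beside them is the mean with its SD (n = 3). The shNdufa5_1 libraries sit between 6.23 and 6.85 FPKM in PCM, below all 3 shControl libraries at 15.2 to 22.1 FPKM. The shNdufa5_2 libraries in PCM sit among these controls, and those in SCM are not drawn.

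The hairpin's profile was broad and mostly made of small differences. Of the 11084 genes tested, 5839 were called (52.7%), 2839 of them higher (25.6%) and 3000 lower (27.1%) with shNdufa5_1. These shares are the background for counts of this comparison on the deposited FPKM scale (the main scale). Counts on other scales or in other comparisons have backgrounds of their own. Differences of at least 2-fold were few: 61 genes rose (0.55%) and 87 fell (0.785%) by that much. The libraries of the groups did not overlap for 6626 genes (59.8%). The median over all genes was -0.01. When each library was scaled by its FPKM sum, the median was -0.12 and the split was 1403 higher and 3673 lower. Those sums rest in part on Gm23935, a gene of 57 bases that resembles ribosomal RNA and held 42110, 99866 and 31614 FPKM in the shNdufa5_1 libraries, against 22968, 26578 and 14889 FPKM in the shControl libraries.

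The 12 largest rises were led by Nptx1 and Plau. Nptx1, a pentraxin best known from neurons, held 4.92, 4.84 and 5.04 FPKM in shNdufa5_1 cells, against 0.361, 0.491 and 0.363 FPKM in shControl cells, a log2 difference of 2.08 ± 0.13. Plau, the urokinase plasminogen activator that starts pericellular proteolysis, held 11.02, 13.1 and 10.8 FPKM in shNdufa5_1 cells, against 2.28, 2.45 and 2.26 FPKM in shControl cells (1.92 ± 0.10). For both genes the lowest shNdufa5_1 library stood above the highest control. Il33, an alarmin cytokine, held 14.3, 12.7 and 16.01 FPKM with shNdufa5_1, against 4.39, 5.06 and 3.58 FPKM with shControl (1.52 ± 0.10). Itga6, the alpha chain of laminin-binding integrins, held 87.8, 87.2 and 87.9 FPKM with shNdufa5_1, against 37.9, 37.1 and 37.3 FPKM with shControl (1.20 ± 0.03), the tightest of these rises. The other leading rises were Ly6g, a surface antigen of the Ly6 family, Tppp3, a tubulin-binding protein, the prolactin-family gene Prl2c2, the serine protease gene Prss22, Npnt, an integrin ligand of basement membranes, the RNA helicase gene Dhx9, the paraspeckle RNA Neat1 and the mitochondrial leucyl-tRNA synthetase gene Lars2. Their log2 differences ran from 1.20 for Lars2 to 1.79 for Ly6g. Prl2c2 has near-identical copies, and its count is uncertain. Lars2 held 67.2, 125 and 51.9 FPKM in shNdufa5_1 libraries, against 33.1, 41.8 and 24.6 FPKM in shControl libraries, and was highest in the library where Gm23935 was highest. Without that library its difference was 0.85, and the part of ribosomal RNA fragments in it was not tested.

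The 12 largest falls were led by Gadd45b and Nfkbia. Gadd45b, a stress-induced protein that binds kinases of the MAPK pathways, held 9.43, 8.42 and 9.13 FPKM with shNdufa5_1, against 49.6, 46.6 and 48.3 FPKM with shControl, and fell to 18.7% of the control mean (-2.30 ± 0.06; limma adjusted p = 2.76e-13). Its relative Gadd45g held 54.9, 58.5 and 55.6 FPKM with shNdufa5_1, against 169, 175 and 178 FPKM with shControl (-1.61 ± 0.06). In both genes the 3 libraries of each group lay close together and the groups did not overlap. H2-K2, Prr13, Snhg15, Car6, Snap47 and Bet1l also led the falls, with log2 differences from -1.41 for Bet1l to -1.89 for H2-K2. Of these, Snap47 and Bet1l encode SNARE proteins of membrane traffic, Snhg15 is a host of small nucleolar RNAs, and Car6 encodes a secreted carbonic anhydrase. H2-K2 held 0.0562, 0.363 and 0.814 FPKM with shNdufa5_1, against 3.89, 4.66 and 3.77 FPKM with shControl, and since it is a pseudogene of a family with near-identical members its count is uncertain.

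**Figure D2:**
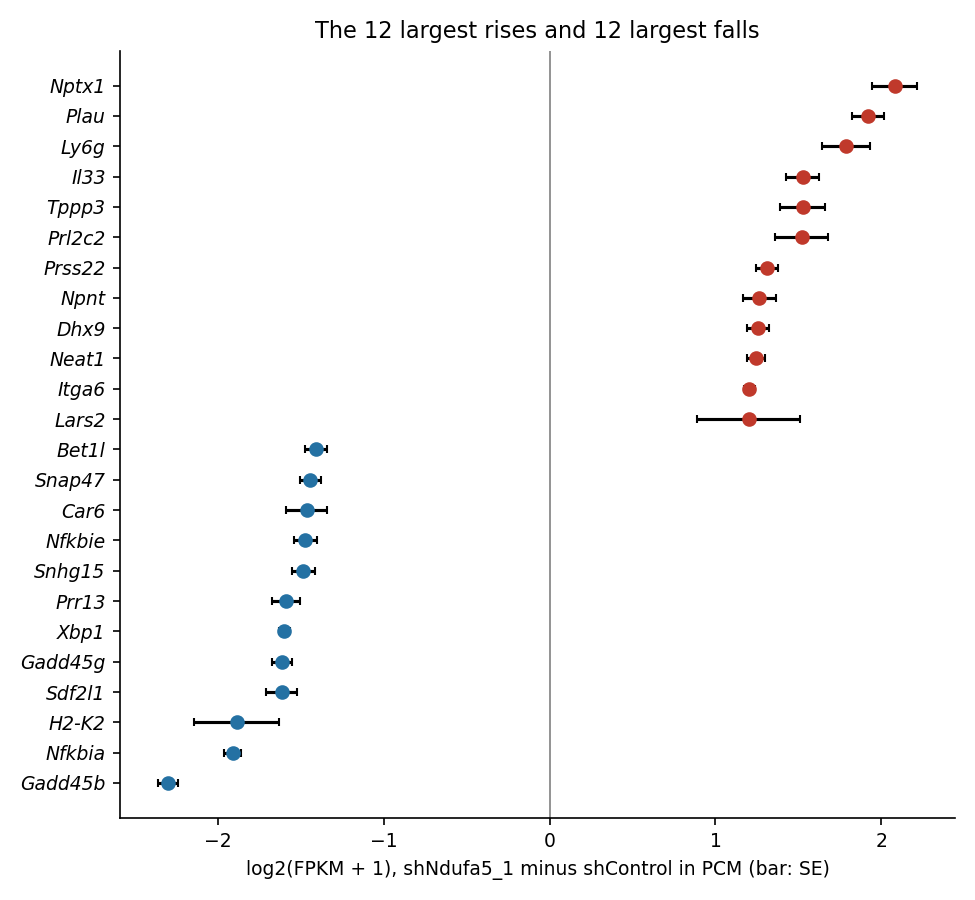
Difference in log2(FPKM + 1), shNdufa5_1 minus shControl in PCM (x axis), for the 12 largest rises and the 12 largest falls (rows); points are the estimates and bars the SE. The rises run from 1.20 for Lars2, with the widest bar, to 2.08 for Nptx1, and the falls from -1.41 for Bet1l to -2.30 for Gadd45b.

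Most members of the endoplasmic reticulum chaperone list, which also holds other stress genes such as Xbp1, were lower. The unfolded protein response raises such genes when misfolded proteins build up, through XBP1, ATF6 and PERK. Of 19 tested members, 14 fell and 1 rose, with a median of -0.28 beside -0.01 over all genes; under every other scaling tried 14 or 15 fell. Xbp1, the transcription factor of the response, held 23.2, 22.9 and 24.7 FPKM with shNdufa5_1, against 74.7, 73.01 and 72.5 FPKM with shControl (-1.60 ± 0.03; limma adjusted p = 5.71e-14). Hspa5, which encodes BiP, the main luminal HSP70, held 322, 325 and 319 FPKM with shNdufa5_1, against 712, 724 and 715 FPKM with shControl (-1.15 ± 0.02). For both, the 3 libraries of a group lay close together and far from the other group. Sdf2l1, a member of luminal chaperone complexes, held 10.4, 11.1 and 9.47 FPKM with shNdufa5_1, against 32.5, 34.9 and 33.4 FPKM with shControl (-1.61 ± 0.09). Dnajb9, a BiP co-chaperone, held 4.98, 4.40 and 4.62 FPKM with shNdufa5_1, against 11.8, 11.6 and 11.9 FPKM with shControl (-1.17 ± 0.07). Manf, a secreted stress-induced factor, fell by 0.99 on the log2 scale, and Calr, the lectin chaperone calreticulin, fell by 0.73. The group did not move as one: Hsp90b1, the luminal HSP90, held 152, 161 and 153 FPKM with shNdufa5_1, against 156, 146 and 161 FPKM with shControl (0.01 ± 0.04; limma adjusted p = 0.866), and the oxidoreductase gene Pdia3 differed by 0.02 ± 0.03 without being called. The lectin chaperone gene Canx was the member called higher, by 0.09 ± 0.03, but its difference was -0.041 when scaled by library totals and -0.022 with GC and length trends removed. Its call was also lost without shNdufa5_1 replicate 1 or replicate 3 (0.08 each) and without shControl replicate 2 (0.07).

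The promoters of these genes were searched for the element that XBP1 and ATF6 are known to use with NF-Y, the endoplasmic reticulum stress element, which reads CCAAT, 9 free bases and CCACG. RefSeq promoter windows (250 bases before the start, build GRCm38.p6) were read on both strands; 17 of the 19 genes had a window and 7 of them held a match, beside 12 of 8124 tested genes with a window and 0.113% of all 32851 windows. The 7 were Hspa5, Calr, Creld2 and Pdia6, which were called lower, Canx, called higher, and Dnajc3 and Hsp90b1, not called. The other 10 windows, among them those of Xbp1, Sdf2l1 and Dnajb9, held no match. The windows below, of the same strand as the gene, show a falling gene with 1 match that begins 65 bases before the start, a falling gene with 1 match on the other strand, and an uncalled gene with 2 matches; capitals mark the matches.
Hspa5, chr2:34771840-34772089, plus strand: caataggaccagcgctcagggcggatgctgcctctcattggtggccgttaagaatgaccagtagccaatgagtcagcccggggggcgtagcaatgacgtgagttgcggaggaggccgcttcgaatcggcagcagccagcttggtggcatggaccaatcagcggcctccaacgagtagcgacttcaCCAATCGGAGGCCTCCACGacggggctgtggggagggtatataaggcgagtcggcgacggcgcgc
Calr, chr8:84846932-84847181, minus strand: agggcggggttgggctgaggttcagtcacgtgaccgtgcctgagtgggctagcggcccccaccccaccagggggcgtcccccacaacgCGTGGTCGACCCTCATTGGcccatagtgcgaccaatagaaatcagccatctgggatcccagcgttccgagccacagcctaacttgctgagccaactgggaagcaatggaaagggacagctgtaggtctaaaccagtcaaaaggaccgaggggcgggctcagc
Hsp90b1, chr10:86705445-86705694, minus strand: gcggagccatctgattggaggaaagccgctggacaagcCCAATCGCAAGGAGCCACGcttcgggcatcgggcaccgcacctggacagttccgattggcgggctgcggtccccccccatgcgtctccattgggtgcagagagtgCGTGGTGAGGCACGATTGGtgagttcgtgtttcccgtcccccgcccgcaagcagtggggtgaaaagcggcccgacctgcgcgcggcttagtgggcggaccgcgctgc
The element was present in Hspa5, which fell by over 2-fold, in Calr, which fell less, and in Hsp90b1, with no detected difference.

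The genes of NF-kB inhibitors and several NF-kB targets were lower, and a few cytokine genes were higher. NF-kB is held in the cytoplasm by IkB proteins, whose genes are themselves NF-kB targets and act as negative feedback. Of 24 tested chemokines, cytokines and NF-kB targets, 11 fell and 4 rose (median -0.16). Nfkbia, which encodes IkB-alpha, held 29.8, 28.6 and 31.3 FPKM with shNdufa5_1, against 117, 121 and 108 FPKM with shControl, and fell to 26.0% of the control mean (-1.91 ± 0.05; limma adjusted p = 3.36e-13). Nfkbie, which encodes IkB-epsilon, held 4.42, 3.94 and 4.41 FPKM with shNdufa5_1, against 12.4, 14.9 and 13.5 FPKM with shControl (-1.47 ± 0.07). In both, every shNdufa5_1 library was below every control. Relb, an NF-kB subunit of the non-canonical pathway, held 17.02, 14.9 and 14.03 FPKM with shNdufa5_1, against 31.3, 29.4 and 30.1 FPKM with shControl (-0.94 ± 0.05). The colony-stimulating factor gene Csf1, which acts on macrophages, held 60.7, 57.6 and 62.4 FPKM with shNdufa5_1, against 104, 107 and 102 FPKM with shControl (-0.79 ± 0.04). Csf2, which encodes GM-CSF, was more uneven, at 14.2, 9.67 and 16.9 FPKM with shNdufa5_1, against 27.7, 26.8 and 25.6 FPKM with shControl (-0.96 ± 0.13), and Lcn2, an iron-sequestering lipocalin, fell by 1.14 on the log2 scale. The 4 members that rose were Il33, the secreted antiprotease gene Slpi (0.89 ± 0.09), the epithelial cytokine gene Tslp (0.70 ± 0.18) and Il34, a ligand of the CSF1 receptor (0.51 ± 0.10). Nfkb1 (0.05 ± 0.05), Ptgs2 (0.10 ± 0.05) and Lif (0.00 ± 0.11) were not called, except Ptgs2 with quantile normalization and Lif without shNdufa5_1 replicate 2 (0.17 each).

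A kappaB motif, GGGA and CC with 4 free bases between them, was found on either strand in 8 of the 14 of these genes with a promoter window, beside 26.2% of tested genes with a window and 17.6% of all windows. The 8 were Nfkbia, Csf1, Nfkb2, C3 and Tnfaip3, called lower, and Cxcl10, Lif and Cxcl2, not called. The other windows held no match: those of Lcn2 and Csf2, called lower, Slpi and Il33, called higher, and Cxcl12 and Ptgs2, not called. The windows of the falling genes Nfkbia, with matches 212 and 29 bases before the start, and Csf1, with 3 matches of which a pair overlap, are given on the strand of the gene with the matches in capitals.
Nfkbia, chr12:55492648-55492897, minus strand: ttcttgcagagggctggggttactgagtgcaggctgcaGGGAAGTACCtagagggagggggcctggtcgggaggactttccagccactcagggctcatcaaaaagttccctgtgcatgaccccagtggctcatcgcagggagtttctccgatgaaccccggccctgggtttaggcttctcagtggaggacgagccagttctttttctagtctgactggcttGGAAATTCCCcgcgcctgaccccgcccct
Csf1, chr3:107760470-107760719, minus strand: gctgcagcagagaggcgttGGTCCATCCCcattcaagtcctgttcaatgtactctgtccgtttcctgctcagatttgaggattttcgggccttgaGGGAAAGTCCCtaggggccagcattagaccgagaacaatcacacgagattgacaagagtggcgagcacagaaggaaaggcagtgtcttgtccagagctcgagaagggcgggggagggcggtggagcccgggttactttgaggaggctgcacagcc
The motif is short, and its match in a window is a description of these letters.

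Immediate early genes, which growth factor and stress signals switch on within minutes, moved in both directions. Of 38 tested members of that list, which also holds feedback inhibitors of MAP kinase, 17 fell and 10 rose (median -0.11; 20 and 6 with library totals as the scale). The largest falls included AP-1 genes. Fosl1, the AP-1 subunit FRA1, held 103, 97.4 and 97.6 FPKM with shNdufa5_1, against 260.1, 262 and 250.5 FPKM with shControl (-1.37 ± 0.03; limma adjusted p = 2.76e-13). Jun held 14.8, 14.4 and 13.6 FPKM with shNdufa5_1, against 36.4, 36.1 and 33.4 FPKM with shControl (-1.25 ± 0.05), and the small bZIP gene Maff held 26.5, 25.9 and 23.3 FPKM with shNdufa5_1, against 60.2, 63.1 and 65.6 FPKM with shControl (-1.29 ± 0.05). No shNdufa5_1 library reached the controls in any of the 3 genes. Fosl2 and Zfp36, the mRNA-decay factor tristetraprolin, each fell by 1.04. The rises were smaller, led by Ier3 (0.43 ± 0.04), the ETS factor gene Etv5 (0.37 ± 0.06) and the RAS-MAPK inhibitor genes Spred1 (0.34 ± 0.05) and Spred2 (0.34 ± 0.06). The call of Spred1 was lost with library totals (0.22). Ier2 (0.06 ± 0.07) and Etv4 (0.04 ± 0.05) were not called, but both were called higher with GC and length trends removed (0.24 for Ier2 and 0.15 for Etv4). Among EGF receptor ligands, Areg rose (0.90 ± 0.06) while Hbegf fell (-0.77 ± 0.04), as did Egfr itself (-0.60 ± 0.07); in that list of 9 genes 4 rose and 3 fell, and with library totals 1 rose and 3 fell with a median of -0.09, beside 0.04.

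Most genes of MHC class I antigen presentation were lower. Of 16 tested members 10 fell and 0 rose (median -0.28); with GC and length trends removed 7 fell and 1 rose (median -0.14), and 9 fell and 1 rose without shControl replicate 3. B2m, the light chain of all class I molecules, held 209, 191 and 196 FPKM with shNdufa5_1, against 303, 286 and 289 FPKM with shControl (-0.56 ± 0.05). Tap1, a subunit of the peptide transporter, held 3.74, 3.37 and 3.30 FPKM with shNdufa5_1, against 6.52, 6.09 and 6.79 FPKM with shControl (-0.74 ± 0.07). The groups were apart in both genes. Psme2, a proteasome activator subunit, fell by 1.14 on the log2 scale with uneven shNdufa5_1 libraries (7.69, 6.15 and 12.9 FPKM, against 18.2, 22.4 and 19.5 FPKM in shControl libraries). Interferon-stimulated genes were mixed: of 24 tested, 6 fell and 3 rose (9 and 2 with library totals, and 4 of each with GC and length trends removed). The share that fell, 25%, was near the background of 27.1%, and 12.5% rose beside 25.6%. Ddx58, which encodes the RNA sensor RIG-I, held 1.78, 1.39 and 2.07 FPKM with shNdufa5_1, against 5.77, 4.95 and 5.35 FPKM with shControl (-1.22 ± 0.10), and Ifi27 fell by 0.80. The antiviral genes Ifit1 (0.69 ± 0.10) and Ifit2 (0.66 ± 0.07) rose, and the abundant Ifitm3 (-0.10 ± 0.06) and Bst2 (-0.03 ± 0.06) were not called, except Ifitm3 with library totals (-0.23).

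Most genes of mitosis were higher. Of 37 tested G2 and M phase genes 34 rose and 0 fell, with a median of 0.57 beside -0.01 over all genes; with library totals as the scale 28 rose and the median was 0.45. Ndc80, the kinetochore subunit that holds microtubules, held 11.3, 9.78 and 11.2 FPKM with shNdufa5_1, against 4.47, 4.56 and 4.54 FPKM with shControl (1.09 ± 0.08; limma adjusted p = 2e-08). Ccnb2, a cyclin of mitotic entry, held 67.2, 68.4 and 63.5 FPKM with shNdufa5_1, against 37.7, 35.5 and 36.3 FPKM with shControl (0.85 ± 0.05). Cenpf, a kinetochore protein of late G2, held 5.71, 5.28 and 5.46 FPKM with shNdufa5_1, against 2.21, 2.49 and 2.38 FPKM with shControl (0.95 ± 0.08). The 3 libraries of each group lay together in all of these genes, and Kif23, a kinesin of the central spindle (0.94 ± 0.07), and the centrosomal kinase gene Nek2 (0.84 ± 0.04) rose by similar amounts. Cdc20 (0.05 ± 0.04), Mad2l1 (0.09 ± 0.07) and Cdc25c (-0.03 ± 0.10) were not called, though Cdc20 was with quantile normalization (0.12) and with GC and length trends removed (0.22).

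Genes of DNA replication rose less. Of 40 tested S phase genes 22 rose and 2 fell (median 0.23); with library totals as the scale 14 rose and 7 fell. Ccna2, the cyclin of S phase and G2, held 49.7, 46.00 and 50.1 FPKM with shNdufa5_1, against 23.4, 22.6 and 23.3 FPKM with shControl (1.04 ± 0.04), and Mcm2, a subunit of the replicative helicase, held 38.8, 40.9 and 38.9 FPKM with shNdufa5_1, against 22.9, 23.2 and 22.8 FPKM with shControl (0.76 ± 0.04). Pcna, the sliding clamp, stood at -0.07 ± 0.04 and was not called, except as lower with library totals (-0.20) and with GC and length trends removed (-0.16), while the licensing gene Cdc6 (-0.27 ± 0.08) and the histone chaperone gene Chaf1b (-0.30 ± 0.08) fell. Of 23 tested p53 targets 9 rose and 6 fell with a median of 0.00, and with library totals 5 rose and 8 fell. Plk2, a stress-induced polo-like kinase, held 41.9, 44.2 and 44.4 FPKM with shNdufa5_1, against 112, 117 and 114 FPKM with shControl (-1.38 ± 0.04). The death receptor gene Fas was nearly silent with shNdufa5_1, at 0.0328, 0.141 and 0.203 FPKM, against 2.85, 1.78 and 2.56 FPKM with shControl (-1.58 ± 0.20), and the cell-cycle inhibitor gene Cdkn1a was at -0.08 ± 0.04 and not called, except with library totals (-0.20). In bulk samples a change in the share of cells in a cycle phase cannot be told apart from a change in RNA per cell.

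NF-Y sites (CCAAT on either strand) are a known feature of mitotic promoters. They were found in 24 of 32 G2 and M phase genes with a promoter window (75%), beside 41.2% of tested genes and 33.8% of all windows. No match was held by the windows of Ndc80, Kif20b, Nuf2, Kif2c, Nusap1, Birc5 and Anln, called higher, or of the uncalled Mad2l1. The window of the uncalled Cdc20 held 2 of these sites. The window of Ccnb2, which has 3 of them at 87, 54 and 21 bases before the start, is given on its own strand with the matches in capitals; the same letters are the first part of the stress element above.
Ccnb2, chr9:70421555-70421804, minus strand: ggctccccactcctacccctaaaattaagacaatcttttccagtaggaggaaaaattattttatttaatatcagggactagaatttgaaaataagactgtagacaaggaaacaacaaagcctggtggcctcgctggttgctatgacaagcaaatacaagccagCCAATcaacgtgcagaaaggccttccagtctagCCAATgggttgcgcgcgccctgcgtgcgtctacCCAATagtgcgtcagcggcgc

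**Figure D3:**
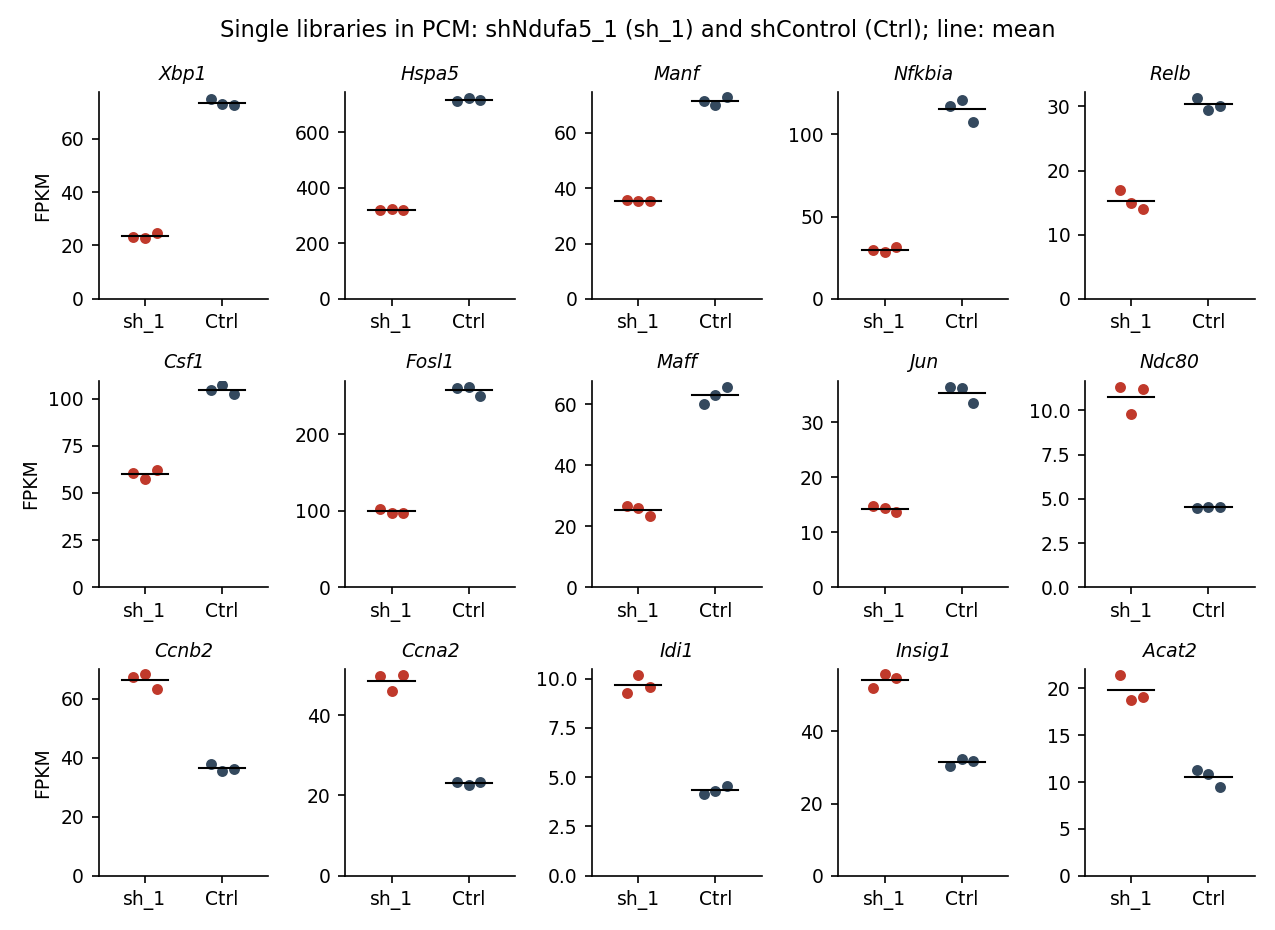
FPKM (y axes, from 0) of 15 genes in the 3 shNdufa5_1 libraries (left in each panel) and the 3 shControl libraries (right) in PCM; points are libraries and lines the group means. The secretory pathway, NF-kB and AP-1 genes (Xbp1 to Jun) are lower with shNdufa5_1 and the mitotic and sterol genes (Ndc80 to Acat2) are higher, with no overlap between groups in any panel.

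Most sterol synthesis genes were higher. SREBP2 drives these genes when membrane cholesterol is short. Of 26 tested, 20 rose and 0 fell (median 0.36); with library totals as the scale 13 rose and 0 fell. Idi1, which isomerizes the isoprenoid precursor, held 9.29, 10.2 and 9.59 FPKM with shNdufa5_1, against 4.13, 4.29 and 4.57 FPKM with shControl (1.00 ± 0.09; limma adjusted p = 1.12e-07). Insig1, the sterol-sensing brake of SREBP processing, held 52.1, 55.97 and 54.9 FPKM with shNdufa5_1, against 30.3, 32.4 and 31.7 FPKM with shControl (0.77 ± 0.05). Acat2, an acetyl-CoA acetyltransferase gene, held 21.5, 18.8 and 19.1 FPKM with shNdufa5_1, against 11.3, 10.9 and 9.51 FPKM with shControl (0.85 ± 0.11). In all 3 genes the shNdufa5_1 libraries stood above every control. Pmvk (-0.00 ± 0.07) and Mvd (0.13 ± 0.07) of the same pathway were not called, except Mvd with GC and length trends removed (0.31). In fatty acid synthesis 7 of 12 genes rose and 2 fell (median 0.22), with library totals 3 rose and 2 fell. The elongase gene Elovl6 rose (0.71 ± 0.06), and the desaturase gene Scd1 fell (-0.41 ± 0.04). Fatty acid oxidation had 6 of 19 genes lower and 0 higher (median -0.15), among them the mitochondrial dehydrogenase gene Acadvl (-0.41 ± 0.07) and Eci1 (-0.40 ± 0.05), near the background share of 27.1%; with library totals 11 were lower.

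The other nuclear genes of complex I moved less than the target. In the Q module, Ndufs8, an iron-sulfur subunit, held 76.1, 65.1 and 77.4 FPKM with shNdufa5_1, against 99.8, 95.97 and 96.7 FPKM with shControl (-0.42 ± 0.05). Ndufs7 (-0.14 ± 0.07) and Ndufs3 (-0.04 ± 0.05) were not called, though Ndufs7 was without shNdufa5_1 replicate 2 (-0.22) or shControl replicate 1 (-0.19), and both were with library totals (-0.27 for Ndufs7 and -0.17 for Ndufs3). The N module had 6 of 11 genes lower and 2 higher (median -0.30; 5 and 2 with a median of -0.17 when GC and length trends were removed), with Ndufv3 (-0.55 ± 0.07), Ndufa7 (-0.45 ± 0.05), Ndufa2 (-0.38 ± 0.07) and the flavin-binding Ndufv1 (-0.31 ± 0.04) among the falls and the iron-sulfur subunit genes Ndufs1 (0.43 ± 0.06) and Ndufv2 (0.29 ± 0.08) as the rises, the second not called with library totals (0.16). Ndufa12 could not be read well, at 9.51, 18.1 and 8.67 FPKM with shNdufa5_1, against 12.6, 42.3 and 12.7 FPKM with shControl, with replicate 2 far above the others in both groups (-0.69 ± 0.59). The membrane arm had 11 of 20 genes lower and 0 higher (median -0.25; 8 lower with a median of -0.16 when GC and length trends were removed, and 7 lower without shControl replicate 2), led by Ndufs5 (-0.53 ± 0.07) and Ndufb9 (-0.51 ± 0.07); Ndufa8 (-0.08 ± 0.05), Ndufb10 (-0.02 ± 0.07) and Ndufa13 (-0.10 ± 0.07) were not called, except Ndufa8 (-0.21) and Ndufa13 (-0.22) with library totals. Of 17 assembly factors 5 fell, led by Foxred1 (-0.65 ± 0.07) and Ecsit (-0.56 ± 0.08), and 2 rose, led by Tmem70 (0.49 ± 0.08). The share that fell, 29.4%, was near the background of 27.1%, and 11.8% rose beside 25.6%. Without shNdufa5_1 replicate 2 or shControl replicate 2 the counts were 2 and 1, and without shControl replicate 1 or 3 they were 3 and 2.

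The rest of the nuclear respiratory chain and the ribosomes leaned the same way. Of 38 genes of complexes II to V 19 fell and 4 rose (median -0.15), and with library totals 23 fell and 0 rose. Uqcrq, a subunit of complex III, held 58.4, 58.1 and 58.7 FPKM with shNdufa5_1, against 102, 102 and 99.8 FPKM with shControl (-0.78 ± 0.04). Cyc1, which encodes cytochrome c1 (-0.61 ± 0.05), and Atp5a1, the ATP synthase alpha subunit (-0.59 ± 0.03), also fell, and Cox6c was among the 4 that rose (0.31 ± 0.08), though it was not called with library totals (0.19). Mitochondrial ribosomal proteins had 36 of 77 genes lower and 9 higher (median -0.17; 44 and 2 with library totals), from Mrps7 (-0.89 ± 0.06) to Mrpl10 (0.36 ± 0.07). Cytosolic ribosomal proteins had 45 of 78 genes lower and 3 higher (median -0.23), and took 4.68% ± 0.170 of fragments with shNdufa5_1, against 5.50% ± 0.137 with shControl (SD, n = 3 each). Rpl19 held 568, 518 and 563 FPKM with shNdufa5_1, against 858, 874 and 888 FPKM with shControl (-0.67 ± 0.04), while Rpl37a rose (0.78 ± 0.08), as did Rpl4 (0.11 ± 0.03) and Rpl6 (0.13 ± 0.03), which were at -0.023 and -0.00495 with library totals as the scale; the call of Rpl4 was also lost with quantile normalization (0.06) and with no filter on low genes (0.11). Many ribosomal protein genes have processed copies, and their counts are uncertain. With GC and length trends removed 34 were lower and 14 higher.

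Messenger RNAs of the mitochondrial genome did not follow the nuclear subunits. Of 12 tested 6 rose and 0 fell (median 0.15); with library totals 1 rose and 1 fell, and with GC and length trends removed 4 rose and 2 fell with a median of -0.01. The complex I subunit mRNA mt-Nd1 held 3317, 2932 and 3276 FPKM with shNdufa5_1, against 2142, 2079 and 2000.2 FPKM with shControl (0.61 ± 0.04). mt-Cytb (0.35 ± 0.04) and mt-Nd4 (0.31 ± 0.05) rose less and were not called with library totals (0.22 and 0.18), and mt-Co1, the most abundant, was at 0.08 ± 0.04 and not called, except without shNdufa5_1 replicate 2 (0.12). With quantile normalization, which fixes the values at the highest ranks, mt-Nd1 was not called. These mRNAs together took 1.47% ± 0.0811 of fragments with shNdufa5_1, against 1.25% ± 0.0270 with shControl (SD, n = 3 each). TCA cycle genes were split, with 6 of 20 higher and 7 lower (median -0.04, and 0.01 to 0.02 with GC and length trends removed or quantile normalization), and with library totals 1 was higher and 9 lower with a median of -0.17.

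Glycolytic genes were uneven along the pathway. Of 25 tested gene entries 15 rose and 6 fell (median 0.23), and with library totals 10 rose and 7 fell. The phosphofructokinase step was higher. Pfkl, its liver-type subunit, held 17.9, 20.3 and 17.6 FPKM with shNdufa5_1, against 7.90, 7.82 and 8.09 FPKM with shControl (1.13 ± 0.05), and Pfkp rose by 0.64 ± 0.04. The glucose transporter gene Slc2a1 held 54.5, 60.2 and 52.3 FPKM with shNdufa5_1, against 34.7, 34.7 and 38.96 FPKM with shControl (0.61 ± 0.06). The enolase step was lower: Eno2 fell (-0.98 ± 0.08), and so did Eno1 (-0.66 ± 0.03), whose count is uncertain because of a near-identical copy. Of the bifunctional enzymes that make and break the activator of phosphofructokinase, Pfkfb4 rose (0.62 ± 0.07) and Pfkfb3 fell (-0.66 ± 0.08). Among 16 HIF targets 8 rose and 3 fell (median 0.13; 5 and 4 with a median of 0.01 with library totals), led by Ddit4, an mTORC1 inhibitor (0.88 ± 0.09).

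Stress programs of the cytosol did not move in 1 direction. Of 29 genes of the integrated stress response 12 fell and 9 rose (median -0.10; 14 and 6 with library totals, and 11 and 13 with GC and length trends removed). Atf4, its central transcription factor, held 264, 232 and 256 FPKM with shNdufa5_1, against 363, 369 and 350.0 FPKM with shControl (-0.53 ± 0.04). Ddit3, which encodes CHOP (-0.47 ± 0.05), and Atf3 (-0.47 ± 0.06) fell too. Atf5 rose (0.59 ± 0.06), and so did the cystine transporter gene Slc7a11, at 10.6, 11.3 and 11.6 FPKM with shNdufa5_1, against 5.98, 5.84 and 5.93 FPKM with shControl (0.82 ± 0.07). In serine and one-carbon synthesis 6 of 13 rose and 4 fell (4 of each with library totals), with the mitochondrial folate genes Mthfd1l (0.87 ± 0.05) and Shmt2 (0.63 ± 0.03) higher and the proline synthesis gene Pycr1 (-0.44 ± 0.06) lower. NRF2 targets had 13 of 27 genes higher and 7 lower (median 0.21; 9 and 11 with library totals; medians of 0.11, 0.32 and 0.13 without shNdufa5_1 replicate 1, 2 and 3), with the glutathione genes Gsr (0.71 ± 0.08) and Gclm (0.56 ± 0.05) higher and Taldo1 (-0.57 ± 0.03) and Sod1 (-0.43 ± 0.06) lower. Of 12 cytosolic heat shock genes 8 rose and 2 fell (median 0.36; 5 and 2 with library totals). Hsp90ab1 held 963, 978 and 944 FPKM with shNdufa5_1, against 654, 665 and 675 FPKM with shControl (0.53 ± 0.02), Hsp90aa1 (0.51 ± 0.04) and Dnaja1 (0.54 ± 0.07) rose, and the stress-induced Dnajb1 fell (-0.48 ± 0.06). Of 25 lysosomal and autophagy genes 13 fell and 4 rose (14 and 2 with library totals), with the autophagy receptor gene Sqstm1 at 341, 346 and 338 FPKM with shNdufa5_1, against 733, 734 and 727 FPKM with shControl (-1.10 ± 0.03; limma adjusted p = 1.3e-13), and Tfeb, the factor that drives lysosomal genes, lower by 0.81.

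**Figure D4:**
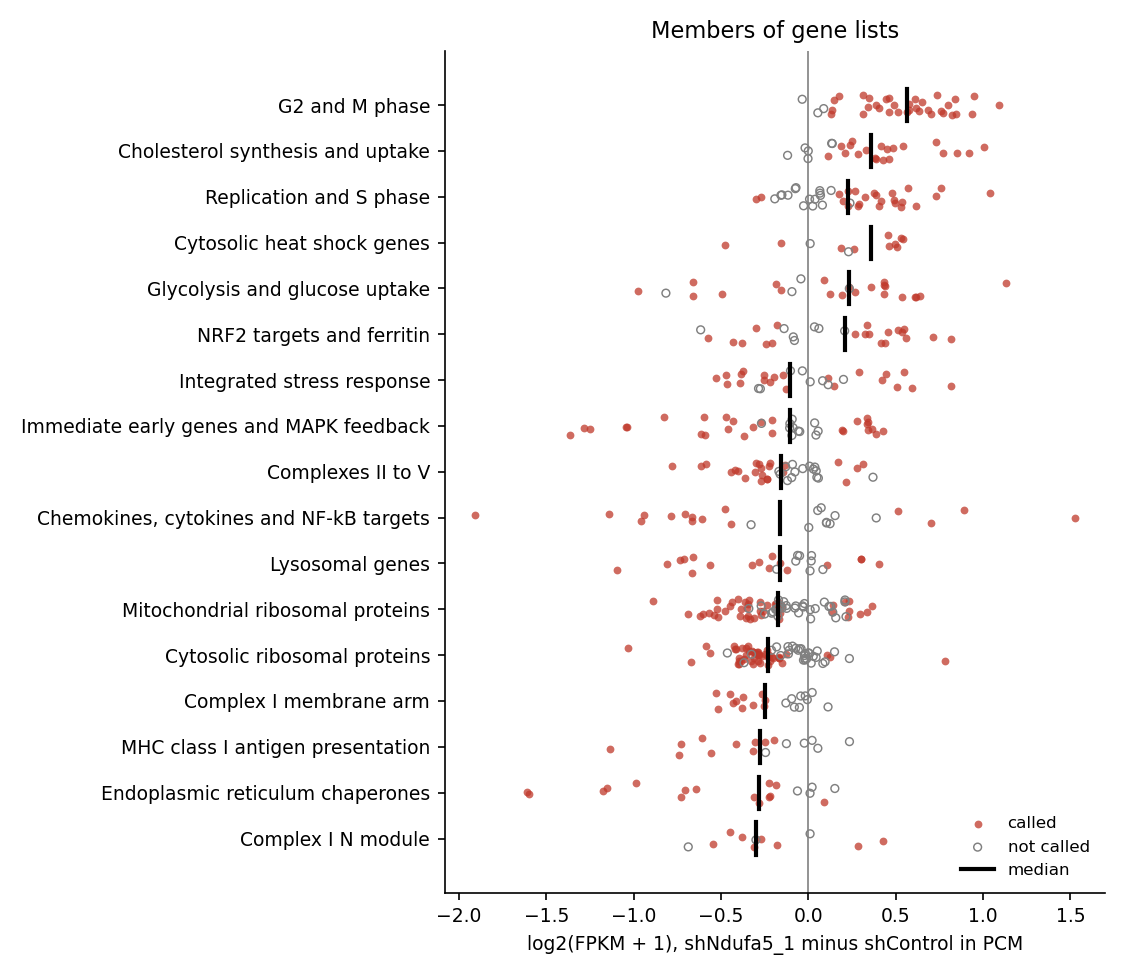
Difference in log2(FPKM + 1), shNdufa5_1 minus shControl in PCM (x axis), for each tested member of 17 gene lists (rows); filled points were called, open points were not, and the black bar is the list's median. G2 and M phase (median 0.57) and cholesterol genes (0.36) lie to the right, and endoplasmic reticulum chaperones (-0.28), MHC class I (-0.28) and the complex I N module (-0.30) to the left of 0.

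Keratin, matrix and adhesion genes were also among the calls. Krt7 held 375, 368 and 356 FPKM with shNdufa5_1, against 226, 224 and 223 FPKM with shControl (0.71 ± 0.03), and its fellow simple-epithelial keratins Krt18 (0.70 ± 0.04), Krt8 (0.61 ± 0.03) and Krt19 (0.52 ± 0.04) rose with it. The tight-junction gene Cldn3 fell (-0.66 ± 0.06), and 5 of 12 epithelial genes rose and 1 fell in all. The intermediate filament gene Vim, of mesenchymal cells, also rose (0.61 ± 0.03), as did Id1, a BMP target (1.00 ± 0.08), while Tgfb1 fell (-0.56 ± 0.05). Of 34 matrix genes 15 rose and 8 fell (6 and 9 with library totals), with Col3a1 (0.99 ± 0.06) and Thbs1 (0.78 ± 0.04) higher and Fbln2 (-0.77 ± 0.03) and Timp1 (-0.52 ± 0.06) lower. Of 22 integrin and adhesion genes 11 rose and 5 fell (4 and 6 with library totals), with Actn4, an actin crosslinker, higher (0.51 ± 0.04). The urokinase and serpin list had 5 of 10 genes higher and 3 lower, Serpinb2 among the rises (0.69 ± 0.14). Of 20 YAP targets 6 rose and 7 fell (3 and 9 with library totals), and Ctgf (0.54 ± 0.05) and Cyr61 (-0.84 ± 0.04), which encode related matricellular proteins, moved in opposite directions.

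The cells' identity was checked on markers. Keratins and Pax8, the Mullerian transcription factor, at 8.32, 8.19 and 8.55 FPKM with shNdufa5_1, against 10.5, 11.6 and 10.3 FPKM with shControl, were present, but Wt1 and Muc16 were listed at 0 in all 6 libraries, Epcam reached at most 0.215 FPKM and Cdh1 at most 0.893 FPKM. Of markers of other cells, the summed level of 19 immune genes was 10.02 to 12.01 FPKM with shNdufa5_1, against 7.998 to 9.22 FPKM with shControl, and came mostly from Cd14 and Cd68; Ptprc was at most 0.00333 FPKM. The sum of 10 fibroblast markers was 11.7 to 13.0 FPKM with shNdufa5_1, against 7.22 to 8.61 FPKM with shControl, with Col3a1 as its main part and Fap and Thy1 at 0 in both groups. The sum of 12 endothelial markers was 3.48 to 4.25 FPKM with shNdufa5_1, against 5.05 to 5.97 FPKM with shControl, mostly Plvap, with Tek, Tie1 and Emcn at 0. The sum of 10 mesothelial markers was high, at 352 to 360 FPKM with shNdufa5_1, against 228 to 258 FPKM with shControl. It came almost wholly from Krt19 and Msln, which were also counted among the line's own identity markers. Calb2, Nkain4 and Rspo1 were at 0 in both groups.

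Much of the profile was seen again in the senescent-cell medium, which was measured on libraries of its own. Ndufa5 differed there by -1.68, and the difference between media was 0.30 (limma adjusted p = 0.22). In SCM 6631 genes were called (59.8%), 3181 higher (28.7%) and 3450 lower (31.1%) with shNdufa5_1. Of the 5839 genes called in PCM, 4158 (71.2%) were called in the same direction in SCM and 271 (4.64%) in the opposite one, and the 4158 are 62.7% of the SCM calls. Of the 61 genes at least 2-fold higher in PCM 46 were called higher in SCM, and of the 87 at least 2-fold lower 82 were called lower. The hairpin's effect itself differed between media for 2900 genes (26.2%), 1965 of them among the PCM calls. The value in PCM was the higher one for 1714 genes (15.5%) and the lower one for 1186 (10.7%). With library totals as the scale the effect differed for 7073 genes, and with scaling by recovered fragments, added after seeing the data, for 4087. FPKM sums were 298724 to 368936 with shNdufa5_1 against 290242 to 303782 with shControl in PCM. In SCM they were 318823 to 348404 against 437859 to 484520. The counts and directions between media given below were read on the main scale only. In the complex I, ribosome and class I lists fewer genes fell in PCM than in SCM: 11 of 20 membrane-arm genes were lower in PCM against 20 in SCM, 45 of 78 cytosolic ribosomal proteins in PCM against 74 in SCM, and 10 of 16 class I genes in PCM against 13 in SCM. The difference between media was itself called, with the higher value in PCM, for 14 of the membrane-arm genes, 70 of the ribosomal proteins and 9 of the class I genes. In G2 and M phase 34 of 37 genes rose in PCM, against 23 in SCM, and 16 differed, all with the larger value in PCM. Gadd45g fell by 1.61 in PCM and by 0.23 in SCM, a difference of -1.38 (limma adjusted p = 5.24e-08). Csf2 was lower in PCM (-0.96) and higher in SCM (0.78), and Slpi was higher in PCM (0.89) and lower in SCM (-0.58).

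The libraries labelled shNdufa5_2 also stood apart from the shNdufa5_1 libraries. In PCM 6967 genes were called between the hairpins (62.9%), 3313 higher (29.9%) and 3654 lower (33%) in shNdufa5_1, with Ndufa5 lower by 1.31 in shNdufa5_1 than in shNdufa5_2. Against the same 3 shControl libraries, shNdufa5_2 had 3947 genes called (35.6%), 2138 higher (19.3%) and 1809 lower (16.3%). Since the controls are shared, the values are only set side by side. Xbp1 differed from shControl by -1.60 with shNdufa5_1 and by -0.02 with shNdufa5_2, and Nfkbia by -1.91 and -0.26. Sdf2l1 was at -1.61 with shNdufa5_1 and at 0.61 with shNdufa5_2. Between the hairpins all 3 genes were called, at -1.57, -1.65 and -2.22. For the rises, Nptx1 was at 2.08 with shNdufa5_1 and 0.56 with shNdufa5_2, Plau at 1.92 and 0.69, and Il33 at 1.52 and 0.81, and Dhx9 was at 1.25 and -0.39. By lists, 0 of 78 cytosolic ribosomal proteins were higher and 75 lower with shNdufa5_1 than with shNdufa5_2. Of 37 G2 and M phase genes 31 were higher and 2 lower, and of 19 members of the endoplasmic reticulum list 2 were higher and 14 lower. Against shControl, shNdufa5_2 itself had 73 of the ribosomal proteins higher and 0 lower. It had 17 of the G2 and M phase genes higher and 4 lower, and 11 of the endoplasmic reticulum list higher and 2 lower. These list counts were read on the main scale only. With library totals 6454 genes were called for shNdufa5_2 against shControl.

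**Figure D5:**
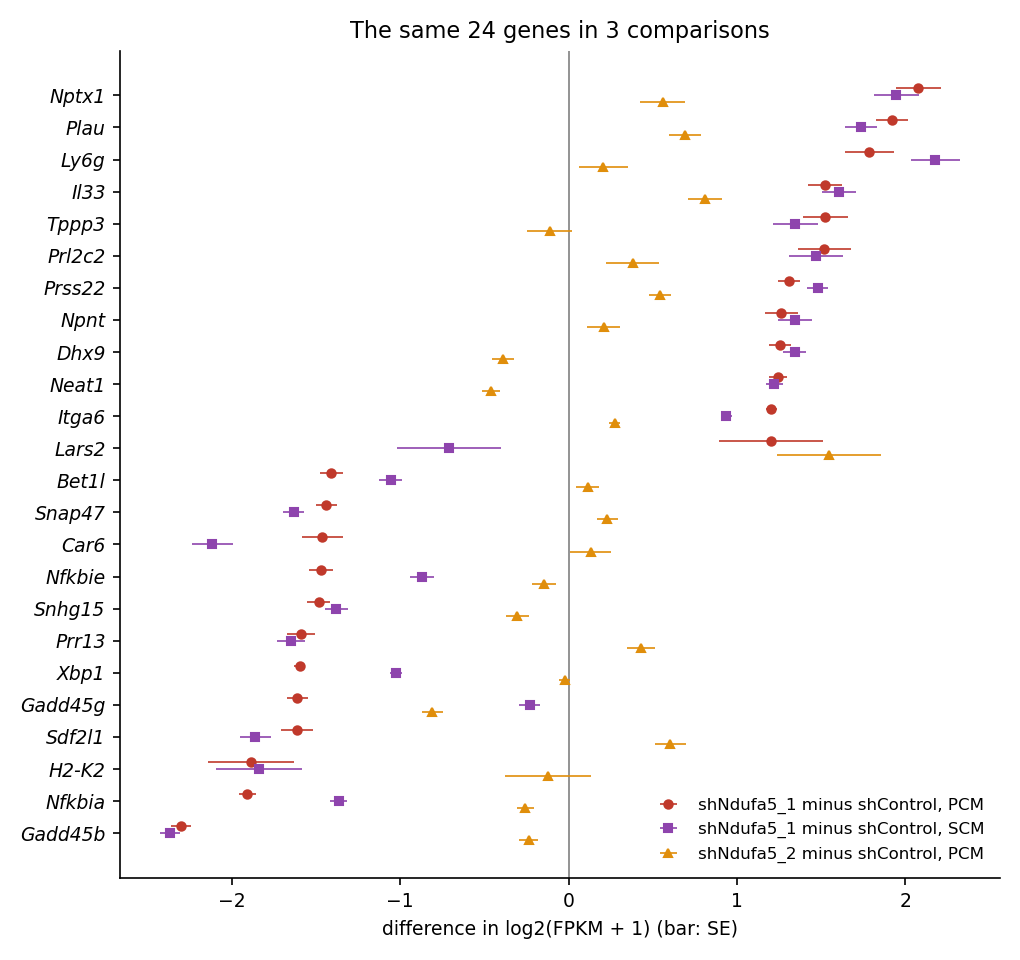
Differences in log2(FPKM + 1) (x axis, bars are the SE) of the 24 leading genes (rows) for shNdufa5_1 minus shControl in PCM (circles), shNdufa5_1 minus shControl in SCM (squares) and shNdufa5_2 minus shControl in PCM (triangles), where circles and triangles share their controls. Circles and squares lie close for most genes, with wide gaps for Lars2 (1.20 and -0.71) and Gadd45g (-1.61 and -0.23), while triangles lie nearer to 0 for most.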

How the data were processed

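Per the labels' protocols, KPCA.B cells were lysed in Trizol, their RNA was cleaned on a column with DNase, and libraries of polyadenylated RNA were built with a NEBNext Ultra II kit. The authors deposited FPKM values for Ensembl mouse genes; the submitters' processing notes name STAR 2.6.1, DESeq2 (version 2), GRCm38 and mm10, with no role. Which counter was used, and whether by strand, is not given in the sources used here, so antisense partners and near-identical copies are uncertain. Low values were whole multiples of the worth of 1 fragment (99.5 to 99.8% whole within 0.1 fragments for single-transcript genes), which gave the depth.

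Genes with a mean of at least 1 FPKM were tested on log2(FPKM + 1), a pseudocount of 1, with limma 3.58.1 in R 4.3.3 (package data.table, version 1.17.8), in a fit over all 18 libraries with 1 coefficient per group and a trend of variance with level; p-values were adjusted by Benjamini-Hochberg. GENCODE's annotation of GRCm38 held 99.9% of the identifiers. On simulated data with 200 of 11084 genes changed, a log2 change of 0.25 was recovered in 22%, 0.5 in 73.5% and 1 in 96%, with 0, 3 and 4 false calls. The genes named were Ndufa5, the 12 largest rises and falls among called genes whose libraries did not overlap and that reached 3 FPKM, and in each list up to 5 called members a direction and 3 uncalled ones of highest level; markers and genes with a motif were named as well. A few genes that this rule picks are not reported here. The comparison and the gene lists were chosen with earlier results of these data known, so they support nothing by themselves. Figures and summaries used Python 3.11.15, pandas 2.3.3, numpy 2.4.6, scipy 1.17.1 and matplotlib 3.10.9. Alternatives were the pseudocount, filter, scaling, GC and length correction, a replicate block, a fit of 6 libraries and leaving out each library; scaling by recovered fragments was added after seeing the data.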

Additional observations from a re-analysis of the deposited data

Results flagged for a closer look

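The effect of shNdufa5_1 against shControl differed between the media, by limma's test of the difference (PCM minus SCM, Benjamini-Hochberg adjusted p under 0.05 over all 11084 genes), for 94 of the genes named in the report, which are given here with that difference in log2(FPKM + 1). Over all genes tested the share was 26.2%. With library totals as the scale 7073 genes differed between media, and with scaling by recovered fragments 4087. The sizes, signs and groups below are those of the main scale, and their stability under other scales was not tested.

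Genes with estimates below 0 (lower with shNdufa5_1) in both media, and further from 0 in PCM, had differences of -1.38 for Gadd45g, -0.78 for Jun, -0.61 for Hbegf, -0.60 for Nfkbie, -0.57 for Xbp1, -0.54 for Nfkbia, -0.53 for Plk2, -0.47 for Mrps7, -0.47 for Fosl1, -0.45 for Dnajb9, -0.45 for Timp1, -0.38 for Fbln2, -0.35 for Bet1l, -0.35 for Egfr and -0.22 for Atf4.

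Genes with estimates below 0 (lower with shNdufa5_1) in both media, and further from 0 in SCM, had differences of 1.13 for Cxcl10, 1.10 for Cd68, 1.01 for Bst2, 0.98 for Ifitm3, 0.84 for Ifi27, 0.84 for Ndufb10, 0.83 for Lcn2, 0.74 for Ddit3, 0.66 for Manf, 0.65 for Car6, 0.59 for Ndufs3, 0.56 for Rpl19, 0.54 for Ndufs8, 0.52 for Ndufv1, 0.51 for Ndufa7, 0.50 for Ndufs7, 0.50 for Ndufa13, 0.50 for Uqcrq, 0.48 for Cyc1, 0.46 for Calr, 0.43 for Ndufa2, 0.43 for Ndufb9, 0.42 for Sod1, 0.41 for Pax8, 0.40 for B2m, 0.40 for Tap1, 0.40 for Ndufa8, 0.39 for Sqstm1, 0.37 for Ndufv3, 0.36 for Tgfb1, 0.33 for Ndufs5, 0.31 for Dnajb1, 0.21 for Nfkb2, 0.21 for Taldo1 and 0.20 for Pdia6.

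Genes with estimates above 0 (higher with shNdufa5_1) in both media, and further from 0 in PCM, had differences of 0.91 for Id1, 0.81 for Cenpf, 0.62 for Mcm2, 0.51 for Shmt2, 0.49 for Ccna2, 0.44 for Insig1, 0.44 for Slc2a1, 0.41 for Ccnb2, 0.36 for Vim, 0.36 for Hsp90ab1, 0.35 for Mthfd1l, 0.35 for mt-Nd1, 0.34 for Krt8, 0.33 for Col3a1, 0.31 for Atf5, 0.29 for Nek2, 0.28 for Ier3, 0.27 for Itga6, 0.25 for Krt18 and 0.22 for Pfkl.

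Genes with estimates above 0 (higher with shNdufa5_1) in both media, and further from 0 in SCM, had differences of -0.82 for Lif, -0.55 for Ier2, -0.40 for Thbs1, -0.36 for Areg, -0.27 for Ctgf and -0.21 for Nfkb1.

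For 18 genes the estimates had opposite signs, and these include estimates that were not called in 1 medium. The differences were 1.91 for Lars2, -1.74 for Csf2, 1.47 for Slpi, 1.14 for Ifit1, 0.88 for Rpl6, 0.82 for Rpl37a, 0.81 for Krt19, -0.63 for Tnfaip3, 0.63 for Il34, 0.54 for Actn4, 0.45 for mt-Nd4, 0.44 for mt-Co1, 0.39 for Etv5, 0.38 for Ptgs2, 0.35 for mt-Cytb, 0.28 for Hsp90b1, 0.28 for Rpl4 and 0.16 for Canx.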

How the results depend on the processing

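For named genes, 2611 values of the main comparison, shNdufa5_1 minus shControl in PCM, were taken under an alternative. Of these, 2572 kept their side of the threshold and, where called, their direction. Differences of single genes between media were not part of this count. With library totals as the scale 1403 genes were called higher, 7073 genes differed between media and 6454 were called for shNdufa5_2 against shControl in PCM; the median of all genes was then -0.12 in the main comparison, and the FPKM sums rest in part on Gm23935. That scaling turned Canx to -0.041, Rpl4 to -0.023 and Rpl6 to -0.00495, and removing GC and length trends turned Canx to -0.022; the cause was not tested. Across genes the difference had Spearman's rho of -0.239 with GC content and 0.169 with exon length. A pseudocount of 0.1 gave 3.33 for Nptx1 and -3.53 for Fas. Scaling by recovered fragments, added after seeing the data, gave 5899 calls in the main comparison and 4087 genes that differed between media. Leaving out 1 library gave 5235 to 5460 calls and Ndufa5 between -1.27 and -1.52.

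The replicate block gave 5794 calls in the main comparison. Over all genes the deviations of same-numbered libraries had r of -0.085, 0.0089 and 0.0012, so the numbers were not taken as pairs. Single genes could still share a replicate pattern. Lars2 was highest in replicate 2 and lowest in replicate 3 in both groups, and the replicate block took its SE from 0.31 to 0.20. In simulation few changes of 0.25 on the log2 scale were recovered. The simulation drew normal noise on log2 values without fragments or depth. It changed 200 of 11084 genes, whereas 52.7% were called in the data, so its recovery may differ from that of this comparison. An uncalled gene is not shown to be unchanged.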

Other observations

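Several gene lists that the report does not describe showed small or mixed differences between shNdufa5_1 and shControl in PCM. On the main scale they are read against the shares of 25.6% higher and 27.1% lower over all genes tested. With library totals 1403 of all 11084 genes were higher and 3673 lower. Of 20 tested genes of NAD metabolism and the NADH shuttles 9 fell and 3 rose (median log2 difference -0.10; 9 and 0 with library totals). Of 16 mitochondrial chaperones and proteases 6 rose and 3 fell (median 0.04), and with library totals as the scale 0 rose and 5 fell. Of 12 solute and amino acid transporters 6 rose and 0 fell (median 0.24), and 2 rose and 1 fell with library totals. Mesenchymal and TGF-beta genes had 9 of 26 members higher and 4 lower (median 0.06; 6 higher and 7 lower with library totals). Of 20 genes of neurons and axon guidance 7 rose and 4 fell (median 0.02; 3 and 5 with library totals). Stem cell-associated genes had 5 of 12 members higher and 2 lower (median 0.01; 1 higher and 5 lower with library totals).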
